A study of Mus musculus with 4 samples.

Results

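Ligands and receptors of the tumour necrosis factor (TNF) superfamilies were followed in stromal cells of mouse pancreatic ductal adenocarcinoma. The members were taken by name: every gene symbol beginning with Tnfsf or Tnfrsf and a number, together with Tnf, Lta, Ltb, Ltbr, Cd40, Fas, Fasl and Ngfr. They came to 39 of the 22609 genes of the count table, 15 ligands and 24 receptors. The cells came from a spontaneous tumour model on the C57BL/6 background and were sorted by flow cytometry on FAP, the surface protease fibroblast activation protein, and on CD34, a surface sialomucin. Each fraction, FAP+ CD34+ or FAP+ CD34-, has 2 libraries, and both fractions share the FAP gate and the tumour. The replicates are described as separate experiments. The driver alleles of the model, the age of the mice and the number of mice behind a library are not stated, so p-values measure the spread between these libraries only.

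TNF superfamily ligands are mostly trimeric membrane proteins that can be shed, and each binds 1 or more cysteine-rich receptors on a neighbouring or distant cell. Receptors with a cytoplasmic death domain can recruit FADD or TRADD and start caspase activation, those that bind TRAF adaptors switch on NF-kappaB and MAP kinases, and decoy receptors bind ligand without passing on a signal. In stroma the family is known for lymphotoxin and TNF signalling to fibroblasts, for the bone-remodelling pair RANKL and osteoprotegerin, and for costimulation of T cells.

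Total counts ran from 10322354 to 14633561 per library, and a count of 0 allows up to 0.291 CPM in the shallowest library (3 counts, counting error only). Levels are CPM, counts scaled to the library's total count, and fold changes are from the edgeR fit to all genes, CD34+ over CD34-. Where values are set against each other, the CD34+ libraries come first, replicate 1 before replicate 2. Cd34, the sort marker, had 1476 and 4000 counts in the CD34+ libraries against 242 and 350 counts in the CD34- libraries, a direction that matches the labels, with an adjusted p of 0.141 (edgeR). Fap, the gating marker, was 79.0 and 39.8 against 142 and 136 CPM, without overlap (log2 fold change -1.20, SE 0.37, adjusted p = 0.230, edgeR), so its transcript was not level between the fractions. Fibroblast markers (8 listed, Fap among them) summed to 39040 and 39200 CPM in the CD34+ and 40430 and 36610 CPM in the CD34- libraries, mostly from the collagen genes Col1a1, Col1a2 and Col3a1, while Cd3d and Cd3g of T cells were at most 0.440 CPM in all 4. Cd3e was 19.0 CPM in CD34+ replicate 1 and at most 0.293 CPM in the others. The 11 myeloid markers summed to 255 and 157 CPM in the CD34+ and to 146 and 91.2 CPM in the CD34- libraries, and 11 of 11 had a positive log2 fold change (median 1.18). The 8 endothelial markers summed to 303 and 322 against 257 and 345 CPM, with 4 higher and 0 lower at an unadjusted p of 0.05 (edgeR). Of the 8, 5 had a positive and 3 a negative log2 fold change. Emcn (4.84 and 5.27 against 10.7 and 6.83 CPM) and Esam (8.91 and 9.30 against 13.5 and 17.5 CPM) were lower in CD34+ libraries. Eng, the largest part of the sum, overlapped (244 and 268 against 222 and 304 CPM). The 7 pericyte markers summed to 676 and 620 against 1002 and 1001 CPM, with 3 lower and 0 higher at that p (edgeR). The 5 mesothelial markers summed to 264 and 143 against 137 and 99.0 CPM, with 3 higher and 0 lower (edgeR). The 6 epithelial markers summed to 754 and 525 against 775 and 389 CPM, with 0 either way at that p. Beside these counts, 9.81% of all tested genes were higher and 6.65% lower at that p (edgeR).

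Receptor transcripts outweighed ligand transcripts, mainly through 3 receptors. By the deposited RPKM, which scale counts to gene length and so allow genes to be compared, Tnfrsf12a ranked first, Tnfrsf1a came next and Ltbr after it among the 39 members in all 4 libraries. Tnfrsf12a, the receptor Fn14 for the cytokine TWEAK, stood at 157 and 110 RPKM in the CD34+ and at 120 and 160 RPKM in the CD34- libraries. Tnfrsf1a, the death domain receptor TNFR1, stood at 63.3 and 84.8 against 102 and 76.9 RPKM. Ltbr, the lymphotoxin beta receptor, stood at 33.1 and 39.2 against 53.8 and 54.8 RPKM. All 24 receptors together summed to 307 and 302 RPKM in CD34+ and 369 and 412 RPKM in CD34- libraries, against 49.7, 56.8, 76.0 and 95.7 RPKM for the 15 ligands in the same order. Without Tnfrsf12a, Tnfrsf1a and Ltbr the other 21 receptors summed to 54.4, 68.5, 93.3 and 119 RPKM. Over all genes RPKM summed to 273200 and 347900 in CD34+ and 381200 and 386100 in CD34- libraries. RPKM are thus not level between libraries, and here they serve to compare genes within a library. In CPM the 24 receptors summed to 960 and 816 against 911 and 960, which overlap, and the 15 ligands to 164 and 134 against 166 and 198. On the CPM scale 23 members had a mean of at least 5 CPM and 12 a mean under 1 CPM.

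**Figure D1:**
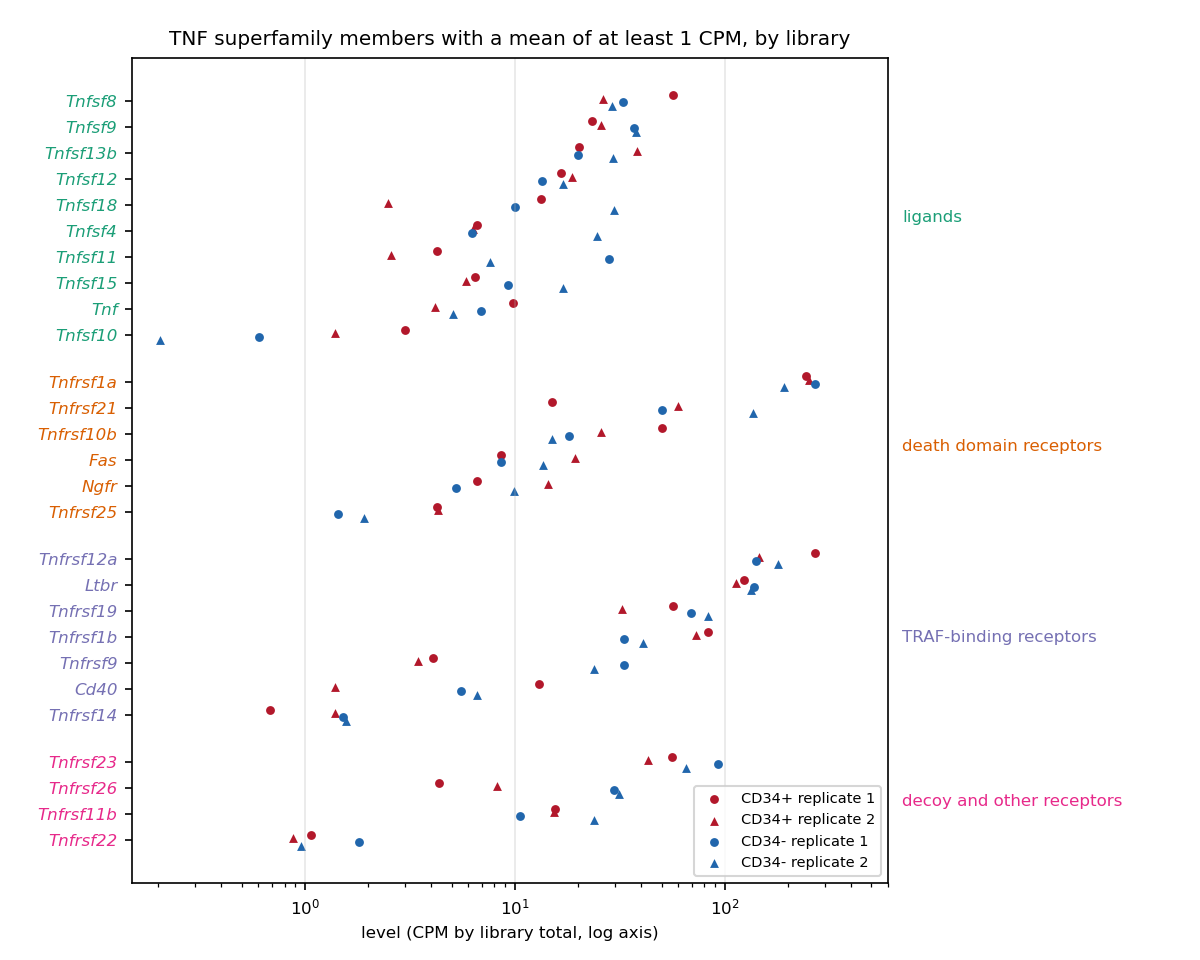
CPM on a log axis in each of the 4 libraries for the 27 members with a mean of at least 1 CPM, grouped by role. Points are shifted a little in height so that libraries do not hide each other. Red symbols are CD34+ and blue are CD34- libraries, circles replicate 1 and triangles replicate 2. The red and blue points of Tnfrsf9, Tnfrsf26 and Tnfrsf1b lie apart, while those of Tnfrsf1a, Tnfrsf12a and Tnf are mixed.

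Of the 39 members, 29 passed the filter on low counts and were tested between the fractions. The edgeR quasi-likelihood test, adjusted over all 13875 genes, called 0 members higher and 0 lower in CD34+ cells, as it did for 0% of all genes in either direction. DESeq2 called 0 members higher and 3 lower (Tnfrsf9, Tnfrsf26 and Tnfsf11) of the 29 it gave an adjusted p, against 2.58% and 1.46% of all 13669 such genes. At an unadjusted p of 0.05 (edgeR), 4 of the 29 were higher (13.8%, against 9.81% of all tested genes) and 5 lower (17.2%, against 6.65%). The fractions did not overlap in CPM for 5 that were higher (17.2%, against 23.4% of all tested genes) and 9 that were lower (31.0%, against 26.6%). The median log2 fold change was 0.13 over these 29 and -0.02 over all tested genes. On log2 RPKM + 1 (limma), a scale with a median of -0.31 over all genes, 0 were higher (against 4.2% of all genes) and 9 lower (against 15.6%) at an unadjusted p of 0.05. Without CD34+ replicate 1, edgeR gave 1 higher and 7 lower of 30 tested members, against 5.55% and 4.76% of all genes. Without CD34+ replicate 2 it gave 5 and 3 of 32, against 12.3% and 10.3%. Without CD34- replicate 1 it gave 2 and 6 of 32, against 5.24% and 3.18%, and without CD34- replicate 2 it gave 1 and 3 of 32, against 6.51% and 2.55%.

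**Figure D2:**
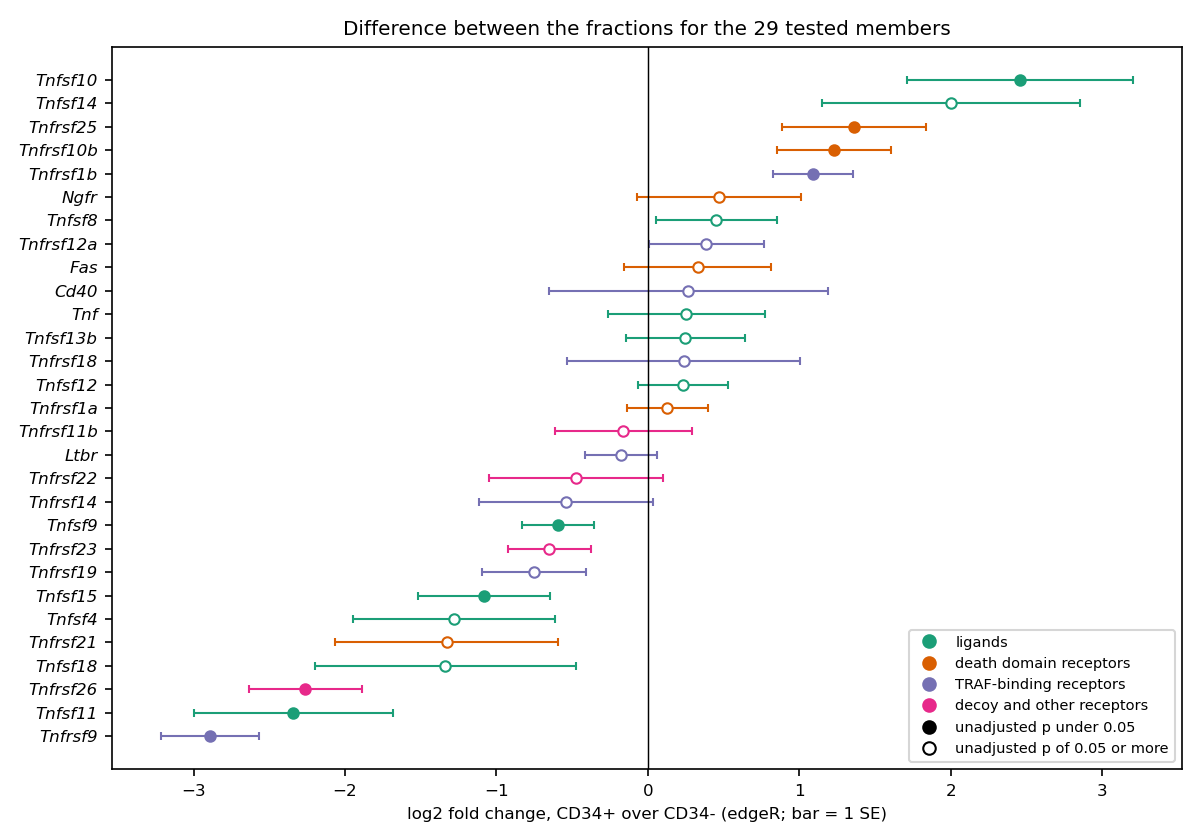
Log2 fold change of CD34+ over CD34- cells with 1 standard error (edgeR, 4 libraries) for the 29 tested members, coloured by role. Filled points have an unadjusted p under 0.05, 4 to the right and 5 to the left of 0, and none passed after adjustment over all genes. Tnfrsf9 lies farthest to the left at -2.89 and Tnfsf10 farthest to the right at 2.46.

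Among receptors that signal through TRAF adaptors, Tnfrsf9 and Tnfrsf1b stood apart between the fractions. Tnfrsf9, the costimulatory receptor 4-1BB, was 4.07 and 3.44 CPM with CD34 and 33.2 and 23.7 CPM without it. Both CD34- libraries lay above both CD34+ libraries. The fitted log2 difference, CD34+ over CD34-, was -2.89 (SE 0.32), or 7.43-fold, with an unadjusted p of 9.2e-05 and an adjusted p of 0.134 (edgeR), the smallest p of the 29. Its adjusted p lay between 5.8e-09 and 0.458 over the 15 alternatives, 5 of which called it, and the log2 fold change lay between -3.19 and -2.09. The 11 T and NK cell markers, of cells known for this receptor, summed to 25.2 and 5.86 against 4.69 and 3.42 CPM, and 9 of the 11 had a mean under 1 CPM. In the CD34- libraries Cd3d, Cd3e and Cd3g were between 0 and 0.076 CPM, Lck was 1.66 and 2.19 CPM, and Klrb1c was 1.44 and 0.0683 CPM. Of the 7 pericyte markers, Rgs5 (2.13 and 7.33 against 45.5 and 89.7 CPM), Mcam (27.9 and 16.5 against 103 and 103 CPM) and Pdgfrb (296 and 330 against 599 and 486 CPM) did not overlap and were higher in CD34- libraries. The other 4, Cspg4, Kcnj8, Abcc9 and Notch3, overlapped, and the median log2 fold change of the 7 was -0.16. The part of either cell type in the level of Tnfrsf9 was not tested. In bulk libraries such as these, fewer cells of a type cannot be told apart from less RNA per cell.

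The 250 bases upstream of the annotated starts are shown for Tnfrsf9 and for 3 other members whose fractions lay apart, Tnfrsf1b, Tnfrsf8 and Tnfsf11. For Tnfrsf8 this rests on 3 and 9 against 0 and 0 counts, the 3 at the floor, and it was not tested. These windows are examples of genes higher in either fraction and leave out other members whose fractions lay apart. They are RefSeq promoter windows on build GRCm38.p6, a later build than the authors' mm9, which held 31 of the 39 members by symbol, and run from 5′ to 3′ on the gene's strand. Capitals mark matches, on either strand, to the kappaB consensus or to the AP-1 motif TGANTCA.
Tnfrsf9 upstream start, chr4:150919905-150920154, + strand: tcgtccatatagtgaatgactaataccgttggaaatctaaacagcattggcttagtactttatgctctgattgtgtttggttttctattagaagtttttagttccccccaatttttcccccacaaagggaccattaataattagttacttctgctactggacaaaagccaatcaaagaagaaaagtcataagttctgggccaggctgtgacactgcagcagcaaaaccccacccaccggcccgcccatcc
Tnfrsf9 downstream start, chr4:150927749-150927998, + strand: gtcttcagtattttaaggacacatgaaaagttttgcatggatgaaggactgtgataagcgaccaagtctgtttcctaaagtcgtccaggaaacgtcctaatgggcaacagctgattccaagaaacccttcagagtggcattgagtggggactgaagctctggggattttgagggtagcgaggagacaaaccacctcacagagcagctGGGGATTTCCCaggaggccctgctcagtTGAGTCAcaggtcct
Tnfrsf1b, chr4:145246871-145247120, - strand: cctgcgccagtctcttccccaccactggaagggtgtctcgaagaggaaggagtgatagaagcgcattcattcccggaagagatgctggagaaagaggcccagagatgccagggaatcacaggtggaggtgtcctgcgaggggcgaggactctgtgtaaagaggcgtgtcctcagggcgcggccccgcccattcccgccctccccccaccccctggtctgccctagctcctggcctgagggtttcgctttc
Tnfrsf8, chr4:145315165-145315414, - strand: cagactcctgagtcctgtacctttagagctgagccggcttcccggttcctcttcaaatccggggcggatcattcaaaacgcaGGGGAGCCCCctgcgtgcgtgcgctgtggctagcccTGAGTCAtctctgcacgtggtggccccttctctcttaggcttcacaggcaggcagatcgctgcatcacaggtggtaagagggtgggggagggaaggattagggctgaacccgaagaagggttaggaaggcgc
Tnfsf11, chr14:78308044-78308293, - strand: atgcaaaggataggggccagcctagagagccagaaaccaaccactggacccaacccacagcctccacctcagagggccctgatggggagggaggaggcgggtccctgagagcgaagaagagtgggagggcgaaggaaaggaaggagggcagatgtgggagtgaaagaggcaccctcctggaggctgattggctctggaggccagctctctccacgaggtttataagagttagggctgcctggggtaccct

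In the window of the downstream Tnfrsf9 start, the kappaB consensus matched from base -43 to -34 and again, overlapping, from -42 to -33, and AP-1 matched from -15 to -9, counted back from the start. The window of Tnfrsf8, a member with too few counts for the test, held 1 match of each. Tnfsf10, Tnfrsf25 and Tnfsf15, also apart and with an unadjusted p under 0.05 (edgeR), held 0 matches of either in their windows, which are not shown. Tnfrsf26, Tnfrsf10b and Tnfsf9, apart with such a p as well, had no window and were not searched. Among all 32851 windows of this length 3.90% held a kappaB match and 6.75% an AP-1 match. Among the 35 windows of members, 3 held a kappaB match (Ltb, Tnfrsf8 and Tnfrsf9) and 6 an AP-1 match. These are matches of letters, with no measurement of binding.

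Tnfrsf1b, encoding TNFR2, the TNF receptor without a death domain, differed in the other direction. It was 83.4 and 73.1 CPM in CD34+ and 33.3 and 40.8 CPM in CD34- libraries, so that the fractions did not overlap. The log2 fold change was 1.09 (SE 0.26, unadjusted p = 0.0057, adjusted p = 0.192, edgeR) and stayed positive in all 15 alternatives, from 0.56 to 1.32. Its neighbour on chromosome 4, Tnfrsf8, encodes CD30. It had 3 and 9 counts in the CD34+ and 0 in both CD34- libraries, at least 4.65-fold higher over the groups (3 counts over the group as floor), and did not pass the filter. Myeloid markers, of cells that also express Tnfrsf1b, had a positive median log2 fold change (1.18), and their part was not tested.

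Other TRAF-binding receptors had an unadjusted p above 0.05 (edgeR) or too few counts for the test. Tnfrsf12a was 270 and 145 against 141 and 180 CPM (log2 fold change 0.39, SE 0.38), and the fractions overlapped. Ltbr was 123 and 113 against 138 and 133 CPM (-0.18, SE 0.24), lower in both CD34+ libraries by less than its error. Tnfrsf19, the orphan receptor TROY, was 56.7 and 32.5 against 69.0 and 83.0 CPM (-0.75, SE 0.35, adjusted p = 0.338, edgeR), without overlap. Cd40, the receptor of T cell help, was 13.1 and 1.39 against 5.52 and 6.63 CPM, with the CD34+ libraries on either side of the CD34- libraries. Tnfrsf14, the receptor HVEM, was 0.678 and 1.39 against 1.51 and 1.57 CPM (-0.54, SE 0.58), without overlap. Tnfrsf18, encoding GITR, had a mean of 0.833 CPM and overlapped. Tnfrsf4 (OX40), Tnfrsf11a (RANK) and the B cell receptors Tnfrsf13b, Tnfrsf13c and Tnfrsf17 had means from 0.0668 to 0.574 CPM and were not tested. Except for Tnfrsf13b, which overlapped, these had larger values in both CD34+ libraries, as Tnfrsf8 did, at 1 to 11 counts against 0 to 5 counts. Tnfrsf17 had 2 and 1 against 0 and 0 counts, within the 3 counts that a 0 allows, so no direction is read for it. No share was taken over other genes with so few counts. Without the filter the median log2 fold change was 0.175 over 20996 genes, against -0.02 over the 13875 tested genes.

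Of the 6 death domain receptors, 2 were higher in CD34+ cells at an unadjusted p of 0.05 (edgeR; 9.81% of all tested genes were) and 0 lower (6.65%). Tnfrsf10b, the mouse receptor of the death ligand TRAIL, was 50.2 and 25.7 against 18.1 and 15.0 CPM. The fractions did not overlap, with a fitted change of 1.23 on the log2 scale (SE 0.38, adjusted p = 0.230, edgeR) that came to 0.63 without CD34+ replicate 1. Tnfrsf25, the receptor DR3, was 4.26 and 4.32 against 1.44 and 1.91 CPM (log2 fold change 1.36, SE 0.48, adjusted p = 0.266, edgeR). Both CD34+ libraries lay above both CD34- libraries.

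The other 4 did not separate the fractions. Tnfrsf1a was 243 and 252 against 269 and 192 CPM (log2 fold change 0.13, SE 0.27). Fas, the receptor of FASL, was 8.62 and 19.3 against 8.55 and 13.7 CPM (0.33, SE 0.48). Ngfr, the low-affinity neurotrophin receptor p75, was 6.59 and 14.4 against 5.22 and 9.91 CPM (0.47, SE 0.54). In each of these, the spread within a fraction was as wide as the difference between fractions. Glial markers, of cells that can express Ngfr, summed to 12.3 and 8.64 against 18.7 and 11.1 CPM, and the glial factor gene Sox10 was at most 0.0733 CPM. Tnfrsf21, the receptor DR6, was 15.0 and 60.1 CPM in CD34+ and 50.1 and 136 CPM in CD34- libraries. Each fraction spanned a wide range and overlapped the other, while between libraries of the same replicate number the CD34- library was the higher both times. Its fitted change, -1.33 on the log2 scale (SE 0.74, adjusted p = 0.407, edgeR), lay between -2.65 and -0.33 when single libraries were left out.

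All 4 decoy and other receptors had a negative log2 fold change, as did 7119 of all 13875 tested genes. At an unadjusted p of 0.05 (edgeR), 1 of the 4, Tnfrsf26, was lower (25%, against 6.65% of all tested genes) and 0 higher (against 9.81%). Tnfrsf26, an orphan receptor gene next to Tnfrsf22 and Tnfrsf23, was 4.36 and 8.21 CPM in CD34+ and 29.7 and 31.5 CPM in CD34- libraries. The fractions lay far apart, with a log2 fold change of -2.26 (SE 0.37), a 4.80-fold difference, an unadjusted p of 8.0e-04 and an adjusted p of 0.165 (edgeR). Over the 15 alternatives the adjusted p lay between 5.7e-05 and 0.509, and 5 called it. Tnfrsf23, a decoy receptor for TRAIL, was 55.8 and 43.0 against 93.1 and 65.6 CPM (-0.65, SE 0.27, adjusted p = 0.310, edgeR), also without overlap. Tnfrsf22, the other decoy of that kind, had a mean of 1.18 CPM and overlapped. These 3 genes are related neighbours, and how the authors' counting dealt with reads they share is not stated, so their separate values are uncertain. Tnfrsf11b, the secreted RANKL decoy osteoprotegerin, was 15.5 and 15.3 against 10.6 and 23.7 CPM, with the CD34+ libraries between the CD34- libraries.

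**Figure D3:**
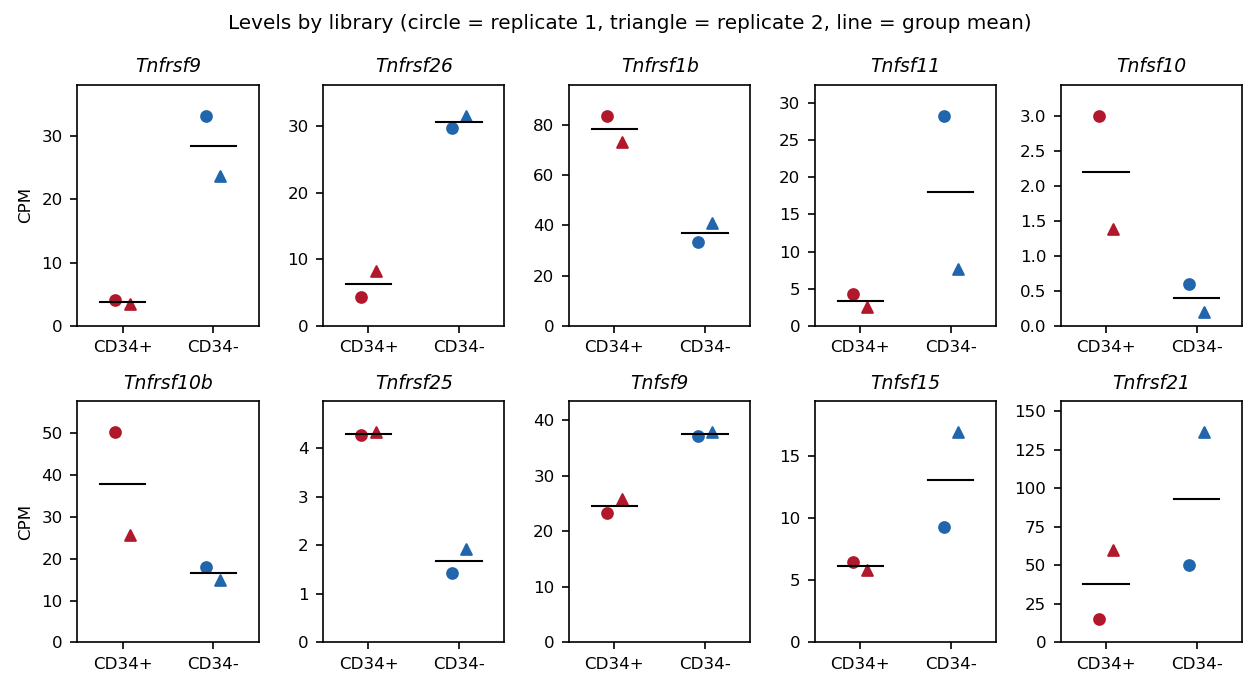
CPM in each library, on axes from 0, for the 9 members with an unadjusted p under 0.05 in order of that p, and for Tnfrsf21. Red symbols are CD34+ and blue CD34- libraries, circles are replicate 1, triangles replicate 2, and the lines are group means. Tnfrsf9 and Tnfrsf26 sit at 3.44 to 8.21 CPM in CD34+ and at 23.7 to 33.2 CPM in CD34- libraries, and Tnfsf11 is spread widely within the CD34- group.

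Among the 11 tested ligands, 3 were lower in CD34+ cells (27.3%, against 6.65% of all tested genes) and 1 higher (9.09%, against 9.81%) at an unadjusted p of 0.05 (edgeR). Tnfsf11, encoding the osteoclast factor RANKL, was 4.26 and 2.56 CPM in CD34+ and 28.2 and 7.65 CPM in CD34- libraries. Both CD34- libraries were higher, but they differed from each other more than the lower one did from the CD34+ libraries. On the log2 scale this came to -2.34 (SE 0.66, adjusted p = 0.217, edgeR), and to -1.25 without CD34- replicate 1. Tnfsf9, encoding 4-1BBL, the ligand of Tnfrsf9, was 23.3 and 25.8 against 37.1 and 37.8 CPM (-0.59, SE 0.24, adjusted p = 0.296, edgeR), without overlap. Tnfsf15, encoding TL1A, the ligand of Tnfrsf25, was 6.49 and 5.86 against 9.31 and 16.9 CPM (-1.08, SE 0.44, adjusted p = 0.298, edgeR), and -0.50 without CD34- replicate 2. It was thus lower, and its receptor higher, in both CD34+ libraries.

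Tnfsf10, encoding TRAIL, was the ligand with higher values in CD34+ cells, with 31 and 19 counts against 8 and 3 counts. Both CD34+ libraries lay above both CD34- libraries, which were at 0.605 and 0.205 CPM, and a fitted change of 2.46 on the log2 scale (SE 0.75, adjusted p = 0.230, edgeR) lay between 1.78 and 3.27 when single libraries were left out. Endothelial and myeloid marker lists had positive median log2 fold changes (1.19 and 1.18), with 3 of 8 endothelial and 0 of 11 myeloid markers negative. The part of these cells was not tested. Tnfsf14, encoding LIGHT, had 13 and 11 against 6 and 1 counts, with a mean of 0.647 CPM. Its fractions did not overlap either (log2 fold change 2.00, SE 0.85, adjusted p = 0.315, edgeR). In CD34- replicate 2 Tnfsf14 was 0.0683 CPM, under the 0.205 CPM that 3 counts make in that library.

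Further ligands of 5 CPM or more varied within the fractions as much as between them. Tnfsf8, encoding CD30 ligand, was 57.0 and 26.2 against 32.9 and 29.0 CPM. Tnfsf13b, encoding the B cell survival factor BAFF, was 20.2 and 38.2 against 20.05 and 29.2 CPM. Tnfsf12, encoding TWEAK, was 16.7 and 18.8 against 13.5 and 16.9 CPM. Tnf itself was 9.78 and 4.18 against 6.88 and 5.06 CPM. The log2 fold changes of these 4 lay between 0.23 and 0.45, each with an SE of at least 0.30.

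The neighbouring costimulatory ligand genes Tnfsf4 (OX40L) and Tnfsf18 (GITRL) on chromosome 1 shared their highest library. Tnfsf4 was 6.59 and 6.30 CPM in CD34+ and 6.28 and 24.6 CPM in CD34- libraries. Tnfsf18 was 13.4 and 2.49 against 10.1 and 29.6 CPM. Both peaked in CD34- replicate 2, and without it the log2 fold changes went from -1.28 to 0.13 and from -1.34 to -0.26. Fasl, the next gene on that chromosome, had 1 to 5 counts per library. Lta had 0 to 4 counts and Tnfsf13 4 to 6 counts. Ltb was 1.45 and 0.733 against 0.378 and 0.615 CPM and was not tested.

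Ligand and receptor transcripts were set side by side within libraries, as the receptor's RPKM over the ligand's, for 22 known pairings. The receptor was the higher in all 4 libraries for 9 and the ligand for 7. Tnfrsf1a exceeded Tnf 18.7-fold to 45.2-fold and Tnfrsf12a exceeded Tnfsf12 13.6-fold to 28.4-fold. In several costimulatory pairs the ligand stood above the receptor instead. Tnfrsf9 over Tnfsf9 was 0.101 and 0.077 in CD34+ and 0.516 and 0.362 in CD34- libraries. Tnfrsf4 over Tnfsf4 was 0.184 at most, and Tnfrsf18 over Tnfsf18 was 0.362 at most. Tnfrsf8 over Tnfsf8 was 0.0356 at most, with 0 counts of Tnfrsf8 in both CD34- libraries. The ligand was also the higher for RANK and RANKL, with Tnfrsf11a over Tnfsf11 at 0.111 at most. The BAFF receptor gene Tnfrsf13c was at most 0.0257 of Tnfsf13b.

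The ratio did not overlap between the fractions for 14 of the 17 pairings with both genes above 0 in every library, higher in CD34+ for 6 and in CD34- for 8, and it overlapped for Tnfrsf18 over Tnfsf18, Tnfrsf12a over Tnfsf12 and Tnfrsf1a over Tnf. Several of these ratios rest on low counts, and several pairings share a ligand or a receptor, so they are not separate results. No such share was taken over ratios of other genes, so the 14 of 17 are not read as an excess. Among single tested genes, CPM did not overlap for 23.4% (higher in CD34+) and 26.6% (lower), a different measure from a ratio of 2 genes. The receptors of TL1A, TRAIL and RANKL are given as examples, chosen after their values were seen. Tnfrsf25 over Tnfsf15 was 2.39 and 2.68 in CD34+ and 0.562 and 0.412 in CD34- libraries, above 1 in one fraction and under 1 in the other. Tnfrsf10b over Tnfsf10 was 26 and 28.7 against 46.5 and 114, the last 2 over 8 and 3 counts of Tnfsf10. Osteoprotegerin over RANKL, as Tnfrsf11b over Tnfsf11, was 2.88 and 4.74 in CD34+ and 0.298 and 2.46 in CD34- libraries. It lay under 1 in 1 library, CD34- replicate 1, where Tnfsf11 was highest. An RPKM ratio within a library does not depend on the library's scaling total. It compares transcripts of cells sorted together and not proteins.

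**Figure D4:**
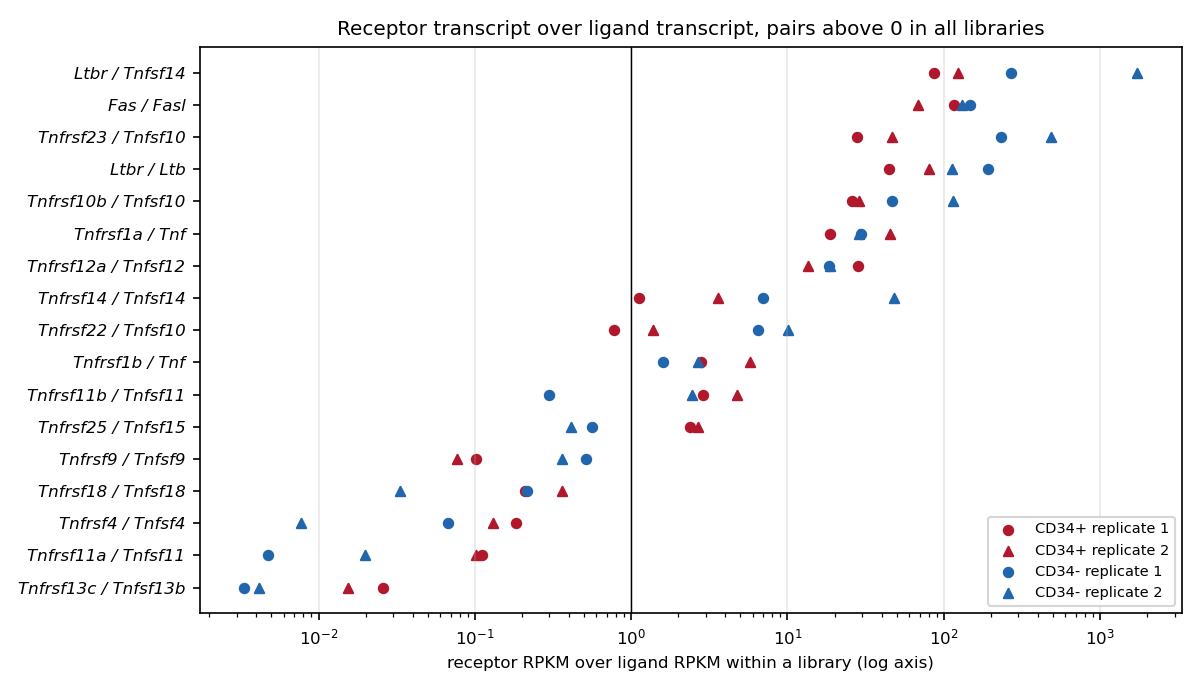
Receptor RPKM over ligand RPKM in each library, on a log axis, for the 17 pairings in which both were above 0 in all 4 libraries. Red symbols are CD34+ and blue CD34- libraries, circles replicate 1 and triangles replicate 2, and the line marks equal levels. Receptors of TNF, TWEAK, FASL and lymphotoxin lie to the right of the line, and those of 4-1BBL, OX40L, GITRL and BAFF to the left.

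Downstream of the receptors, 36 genes in 4 lists were read from the same fit, and 0 of them passed the adjusted threshold. At an unadjusted p of 0.05 the 4 lists stand against 9.81% higher and 6.65% lower among all tested genes. Of the 6 TRAF adaptors, 1 was higher (16.7%) and 1 lower (16.7%) at that p (edgeR). Traf1, an NF-kappaB-responsive adaptor, was 12.7 and 5.49 against 2.12 and 2.19 CPM (log2 fold change 2.09, SE 0.55, adjusted p = 0.207, edgeR). Traf4 was 34.7 and 32.5 against 57.2 and 59.6 CPM (-0.78, SE 0.23, adjusted p = 0.229, edgeR). Traf3, which restrains the alternative NF-kappaB pathway, was 63.6 and 34.7 against 28.6 and 32.2 CPM (0.71, SE 0.35). The fractions did not overlap for these 3, and Traf2, Traf5 and Traf6 overlapped.

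Among 10 ubiquitin ligases and deubiquitinases, 2 were higher (20%) and 0 lower at that p. Tnip1, a partner of the deubiquitinase A20, was 119 and 65.1 against 34.8 and 43.3 CPM (log2 fold change 1.25, SE 0.37, adjusted p = 0.227, edgeR). Birc2, encoding cIAP1, was 63.6 and 55.0 against 35.6 and 37.9 CPM (0.71, SE 0.24, adjusted p = 0.257, edgeR). Birc3, encoding cIAP2, was 129 and 145 against 45.8 and 96.5 CPM (0.94, SE 0.41), without overlap.

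Of 9 genes of receptor complexes and cell death, 0 were higher and 1 lower (11.1%) at that p. Ripk3, the kinase of necroptosis, was 61.8 and 46.8 against 96.1 and 77.0 CPM (log2 fold change -0.65, SE 0.26, adjusted p = 0.301, edgeR). Casp8, the initiator caspase of these receptors, was 23.8 and 33.6 against 41.6 and 46.0 CPM (-0.60, SE 0.27). Cflar, which encodes its inhibitor FLIP, was 316 and 184 against 142 and 156 CPM (0.77, SE 0.35). Neither overlapped between fractions and neither reached an unadjusted p of 0.05.

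Of 11 downstream kinases and kinase partners, 1 was higher (9.09%) and 0 lower at that p. This was Map3k14, encoding NIK, the kinase of the alternative NF-kappaB pathway, at 17.1 and 21.2 against 12.1 and 9.98 CPM (0.81, SE 0.29, adjusted p = 0.269, edgeR). Ikbkg, encoding NEMO, was 14.5 and 23.1 against 30.6 and 30.3 CPM (-0.68, SE 0.30), and Map3k7, encoding TAK1, 39.3 and 31.7 against 44.0 and 51.5 CPM (-0.41, SE 0.26).

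Of 7 superfamily genes that the naming rule leaves out, 3 were tested and 0 passed in either direction. Eda2r, the receptor XEDAR, was 3.10 and 6.89 against 7.04 and 17.2 CPM (log2 fold change -1.28, SE 0.61), without overlap. Relt was 10.6 and 7.91 against 7.41 and 9.16 CPM. Eda, with a mean of 4.44 CPM, was 3.39 and 9.67 against 1.13 and 3.55 CPM (log2 fold change 1.46, SE 0.76) and overlapped. Cd40lg, whose product binds CD40, was at 0 CPM in 3 libraries and 0.0757 CPM in the fourth.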

How the data were processed

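RNA of 4 sorted libraries was sequenced after extraction with a Purelink kit and linear amplification with MessageAmp, per the labels' protocols, so reads of amplified copies are not independent. Bowtie2, TopHat2, HTSeq, edgeR and build mm9 are named in the submitters' processing notes, without versions; annotation and strand setting are not stated. The deposited counts are whole reads per gene. The deposited RPKM and bias-adjusted FPKM are scaled by the authors to gene length and library. A further 14 columns of per-sample values match none of the 4 samples and were left out.

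Counts were tested with edgeR 4.0.16 (R 4.3.3; glmQLFTest, TMM factors 0.962 to 1.05, filterByExpr, group as the only term, 2 residual and 4.17 prior degrees of freedom), two-sided, with Benjamini-Hochberg adjustment over 13875 genes at 0.05; 2 libraries against 2 allow no exact permutation p under 0.333. The standard error is the log2 fold change over the square root of F. The script was tested on simulated data. Alternatives were DESeq2 1.42.0, limma 3.58.1 (voom, and with trend on log2 RPKM and FPKM with pseudocounts of 1 or 0.1), edgeR's exact test, other scalings and filters, a replicate block and leaving out each library. Members of at least 5 CPM, or with an unadjusted p under 0.05, are given in every library. Pathway lists name up to 3 genes of the smallest p among those with a mean of at least 5 CPM. Members, lists and rule were chosen with earlier results of these data known. Gene names are the lower-case names of the tables, and all 39 matched a GRCm38 symbol, from which neighbours were taken.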

Additional observations from a re-analysis of the deposited data

How the results depend on the processing

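Over all genes, 0 were called in each direction by the main test, and DESeq2 called 352 higher and 199 lower, edgeR's exact test 457 and 203, edgeR without a filter 194 and 137, scaling by library totals 2 and 0, a filter of 1 CPM 2 and 0, limma on log2 RPKM + 1 5 and 7 and on log2 RPKM + 0.1 32 and 66. The fit with a replicate block called 39 and 23. Among the members, Tnfrsf9, Tnfrsf26 and Tnfsf11 (3 lower) were called by DESeq2, by the exact test, which also called 1 higher, Tnfrsf1b, and without a filter; Tnfrsf9 and Tnfrsf26 (2 lower) were called with the block and on log2 RPKM + 0.1. No other of the 15 alternatives called a member, and leaving out single libraries gave 0 to 0. At an unadjusted p of 0.05 the 4 higher and 5 lower members became 4 and 8 with DESeq2, 6 and 10 without a filter, 4 and 3 with RLE factors, 5 and 8 with the block, 0 and 9 on log2 RPKM + 1, 2 and 9 on log2 RPKM + 0.1, while log2 FPKM + 1 gave 1 and 8; without single libraries they ranged from 1 to 5 and from 3 to 7. The cause of these shifts was not tested. With the block, 12.5% of all genes were higher and 9.95% lower at that p, and Tnfrsf21 went from an unadjusted p of 0.120 to 0.000623 (log2 fold change -1.43, SE 0.23, adjusted p = 0.0613, edgeR). The cells came from duplicate experiments, but a number is not said to mark the same experiment in both fractions, and replicate differences correlated at 0.241 across 13875 genes between the fractions.

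The RPKM and FPKM scales shifted the median of all genes to -0.31, -0.42 and -0.31 (log2 RPKM + 1, + 0.1 and log2 FPKM + 1), and in that order turned the sign of Cd40 (-0.445, -0.815 and -0.534), Fas (-0.0998, -0.136 and -0.181), Tnf (-0.195, -0.268 and -0.211), Tnfrsf12a (-0.0812, -0.0818 and -0.337), Tnfrsf1a (-0.272, -0.275 and -0.469), Tnfsf12 (-0.144, -0.163 and -0.301), Tnfsf13b (-0.172, -0.195 and -0.257) and Tnfsf8 (-0.0634, -0.0718 and -0.0497), and FPKM that of Ngfr (-0.0762). Cd40 also turned with voom (-0.61) and with the replicate block (-0.353). Leaving out single libraries turned Cd40 (-2.14 to 1.11), Fas (-0.368 to 0.795), Ngfr (-0.208 to 1.10), Tnf (-0.516 to 0.735), Tnfrsf11b (-0.708 to 0.628), Tnfrsf12a (-0.161 to 0.753), Tnfrsf1a (-0.0348 to 0.277), Tnfsf12 (-0.0195 to 0.486), Tnfsf13b (-0.291 to 0.630), Tnfsf4 (-2.02 to 0.125) and Tnfsf8 (-0.247 to 0.896). The other 14 members given in every library kept their direction in all 15 alternatives.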

Other observations

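Some members, like many of all tested genes, followed the replicate number more than the fraction. Both libraries numbered 2 lay above both numbered 1 for 5 of the 29 tested members (17.2%, against 11.8% of all tested genes), namely Fas, Ngfr, Tnfrsf21, Tnfsf12 and Tnfsf13b. The reverse held for 4 (13.8%, against 18.4%), namely Tnf, Tnfrsf18, Tnfrsf22 and Tnfsf8. The members' share was above that of all genes in the first direction and under it in the other. Nothing particular to the members is read from these shares. While the cells are said to come from duplicate experiments, it is not stated that 1 number marks the same experiment in both fractions.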
